A study of Mus musculus with 41 samples.

Results

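2i-O48-TKO was compared with 2i-O48, the line that differs from it in the labels only by an intact H19 gene, in 2 culture media. Both are androgenetic haploid embryonic stem cell lines (AG-haESCs) of the C57BL/6 strain, which carry a single, sperm-derived genome. Both lack H19-DMR and IG-DMR, the regions whose methylation on the paternal chromosome sets the imprints of the H19-Igf2 and Dlk1-Dio3 domains, and 2i-O48-TKO lacks the H19 gene as well. Each line gave 1 RNA-seq library in 2i/L, a serum medium with LIF and inhibitors of Mek1/2 and Gsk3β, and 1 library 5 passages after transfer to SF/a2i/L, a serum-free medium with LIF and inhibitors of Src and Gsk3β. These are 4 of the 13 RNA-seq libraries of the study, chosen by the genotype and the medium in their labels. Each line is a single line, no passage number is given for either, and each combination of line and medium is 1 library. The effect of the H19 deletion therefore cannot be told apart from differences between the cell lines, their passages or single libraries.

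H19 is a long noncoding RNA of the imprinted cluster on distal chromosome 7, normally expressed from the maternal chromosome, and it competes with the growth factor gene Igf2 for shared enhancers. It is also the host of a microRNA, miR-675, whose release has been linked to limits on placental growth. In cells with only a paternal genome, deleting H19-DMR serves to mimic the paternal pattern, in which Igf2 is active and H19 is silent. The 2 mature forms of miR-675 are shown because H19 is their host transcript. The extent of the H19 deletion is not given in the sources used here, so its effect on the miR-675 sequence is not known. The sequences are from RefSeq (GRCm38.p6, minus strand of chromosome 7) and the capitals mark the seed, bases 2 to 8 from the 5′ end, with which a microRNA pairs to its targets. The 5p form lies at chr7:142577112-142577133 and the 3p form at chr7:142577078-142577099, and their seeds differ.
mmu-miR-675-5p: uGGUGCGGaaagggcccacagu
mmu-miR-675-3p: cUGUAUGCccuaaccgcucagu

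Levels are given in the deposited unit FPKM, a fragment count scaled by transcript length and by library depth. Differences are log2(FPKM + 1) of 2i-O48-TKO minus 2i-O48 within a medium, so that a difference of 1 approaches 1 doubling for a well-expressed gene and understates the change of a low one. The 9959 genes with at least 1 FPKM in at least 2 of the 4 libraries were compared. The depth implied by the smallest FPKM values was 18400000 to 21800000 fragments per library, and 9471 to 9909 genes reached 1 FPKM. The 7 Y-linked genes examined were at 0 in all 4 libraries. Of 20 genes typical of fibroblasts, which serve as feeder cells for stem cells, 1 to 10 were at 0, and their summed level was 66.4 and 69.4 FPKM in 2i-O48 and 2i-O48-TKO in 2i/L and 74.5 and 50.6 FPKM after the switch. Of the 17 naive pluripotency genes, all 17 passed the filter, and Nanog was at 110 to 467 FPKM and Pou5f1 at 59.6 to 168 FPKM over the 4 libraries.

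The first question was whether H19 and its neighbours differed between the lines. H19 (NCBIM37, chromosome 7, 149761434 to 149764048, minus strand, annotated as a processed transcript) was listed at 0 in both lines in 2i/L, where 3 fragments would correspond to 0.0676 and 0.0719 FPKM. After the switch 2i-O48 had 0.125 FPKM, about 5.15 implied fragments. Switched 2i-O48-TKO had 0.0686 FPKM, where the value of 3 fragments is 0.0801 FPKM. Wild-type 2i-14, a line with none of the deletions, had 0.0571, 0.0248 and 0 FPKM at p18, p39 and p50 in 2i/L. After the switch 2i-14 had 0.0982 FPKM. The transcript was thus close to undetected with or without its gene, also where H19-DMR is intact, and its level does not check the labels. Such limits cover counting error only. Mir675 was listed at 0 in the 4 libraries, and libraries of this kind are not made to capture mature microRNAs.

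Igf2, which encodes a fetal growth factor, had 0.772 FPKM in 2i-O48 against 0.0140 FPKM in 2i-O48-TKO in 2i/L. After the switch it was 0.0568 FPKM and 0.0314 FPKM. 2i-O48 in 2i/L was thus the only one of the 4 libraries with more than a trace of Igf2, about 75.2 implied fragments. Meg3, the noncoding RNA of the Dlk1-Dio3 domain, was 0.132 and 0.164 FPKM in 2i-O48 and 2i-O48-TKO in 2i/L and 0.0427 and 0.0240 FPKM after the switch. Dlk1, a Notch-like ligand of the same domain, was at most 0.0236 FPKM in the 4 libraries. Both lines lack IG-DMR, and neither gene was detectable above a trace in either. In wild-type 2i-14, over both media, Dlk1 was also low, at 0.0119 to 0.178 FPKM, while Meg3 was 1.91 to 22.7 FPKM.

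Of the 31 genes of the distal chromosome 7 cluster and the 11 of the Dlk1-Dio3 domain in the files, 37 were above 0 in at least 1 of the 4 libraries. The filter was passed by 16, and 0 of them differed by at least 1 in the same direction in both media, against 0.331% of all genes. Ascl2, a trophoblast regulator on distal chromosome 7, came closest. It stood at 2.01 FPKM in 2i-O48 against 4.29 FPKM in 2i-O48-TKO in 2i/L, and 1.06 and 3.31 FPKM after the switch, differences of 0.81 and 1.07. Cd81, a membrane tetraspanin, was 227 and 461 FPKM in 2i/L and 432 and 363 FPKM after the switch, so that the order of the lines changed with the medium. Cdkn1c, a cell cycle inhibitor, differed by 0.91 in 2i/L and by -0.60 after the switch, and Phlda2, which limits placental growth, by 0.71 and -0.15. Mrpl23 differed by -0.50 and 0.46 and Ctsd by -0.04 and 0.43. Of the 14 tested genes of the distal chromosome 7 cluster, 6 lay above 0 in 2i/L and 9 after the switch, so the cluster showed no common shift. Among the other imprinted genes, the median difference of 19 paternally expressed genes was -0.31 in 2i/L and -0.24 after the switch, and that of 14 maternally expressed genes was 0.24 and -0.11. Mest, a paternally expressed gene, differed by -1.38 in 2i/L and by -0.19 after the switch.

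Over all genes, the share that differed between the lines lay within the range between passages of wild-type lines. In 2i/L, 632 genes (6.35%) differed by at least 1, 365 of them higher (3.67%) and 267 lower (2.68%) in 2i-O48-TKO. After the switch, 297 genes (2.98%) did, 143 higher (1.44%) and 154 lower (1.55%). Between 2 passages of a wild-type line in 1 medium (7 pairs from 2i-14, TSa2i-14 and TSa2i-C57), the share of the same genes that differed by at least 1 was 1.91% to 7.86%. Only p18 against p50 of 2i-14 (6.97%) and p9 against p58 of TSa2i-C57 (7.86%) passed the 2i/L share of the lines. The other pairs of 2i-14 were at 3.62% and 4.67%. The median difference over all genes was -0.057 in 2i/L and 0.033 after the switch. Across genes, the differences in the 2 media had a Pearson correlation of 0.031, which is given as a description, since genes are not independent replicates.

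**Figure D1:**
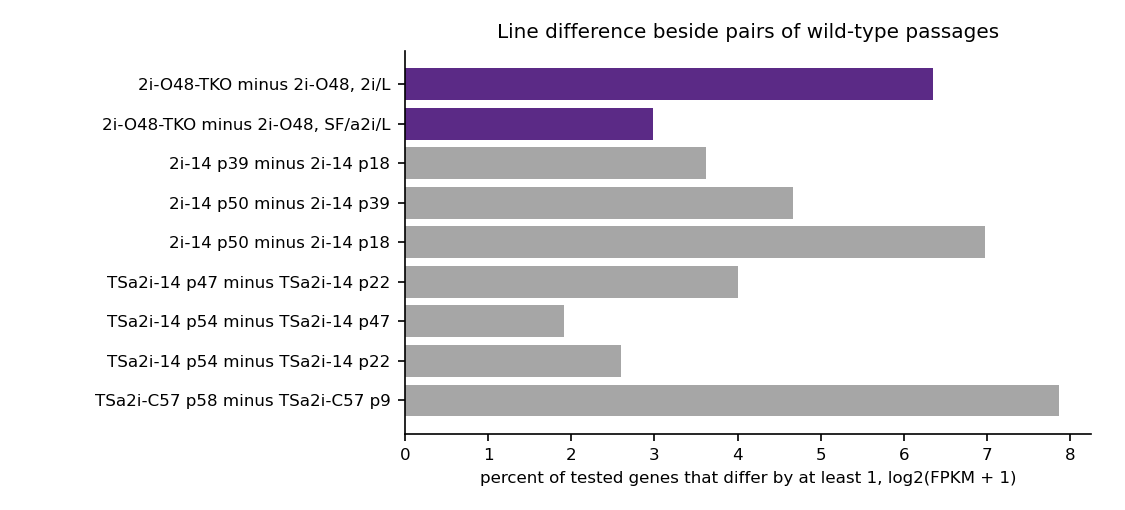
Percent of the 9959 genes that differed by at least 1 in log2(FPKM + 1) between 2i-O48-TKO and 2i-O48 in each medium (purple) and between 2 passages of a wild-type line in 1 medium (grey). The 2 purple bars, 6.35% and 2.98%, lie within the range of the grey bars, 1.91% to 7.86%.

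In both media and in the same direction, 33 genes (0.331%) differed by at least 1. Of these, 15 (0.151%) were higher and 18 (0.181%) lower in 2i-O48-TKO. A further 24 genes (0.241%) differed by at least 1 in both media but in opposite directions. The smaller of the 2 differences of the 33 genes ranged from 1.01 to 1.89, and 0 genes differed by at least 2 in both. Just under the threshold, between 0.9 and 1, lay another 17 genes that were higher and 10 that were lower. In limma with the medium as a block, 6 genes (0.0602%) had an adjusted p under 0.05 by the Benjamini-Hochberg method over the 9959 genes, and 660 had an unadjusted p under 0.05. All 6 were among the 33. They were Bhlhe40 and Ndufs5, which rose in 2i-O48-TKO, and Id3, S100a6, Tgoln2 and Hist3h2ba, which fell. The fit leaves 1 residual degree of freedom per gene, so its p-values measure the spread of the line difference between the 2 media, borrowed across genes, and not the spread between independent lines. The calls depend on the fit: without the medium as a block, with 2 wild-type libraries added, or without the filter, limma called 0 genes. With quantile scaling it called 4 genes, all lower, and with median centring only Id3, so that the 2 higher calls were lost under both.

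**Figure D2:**
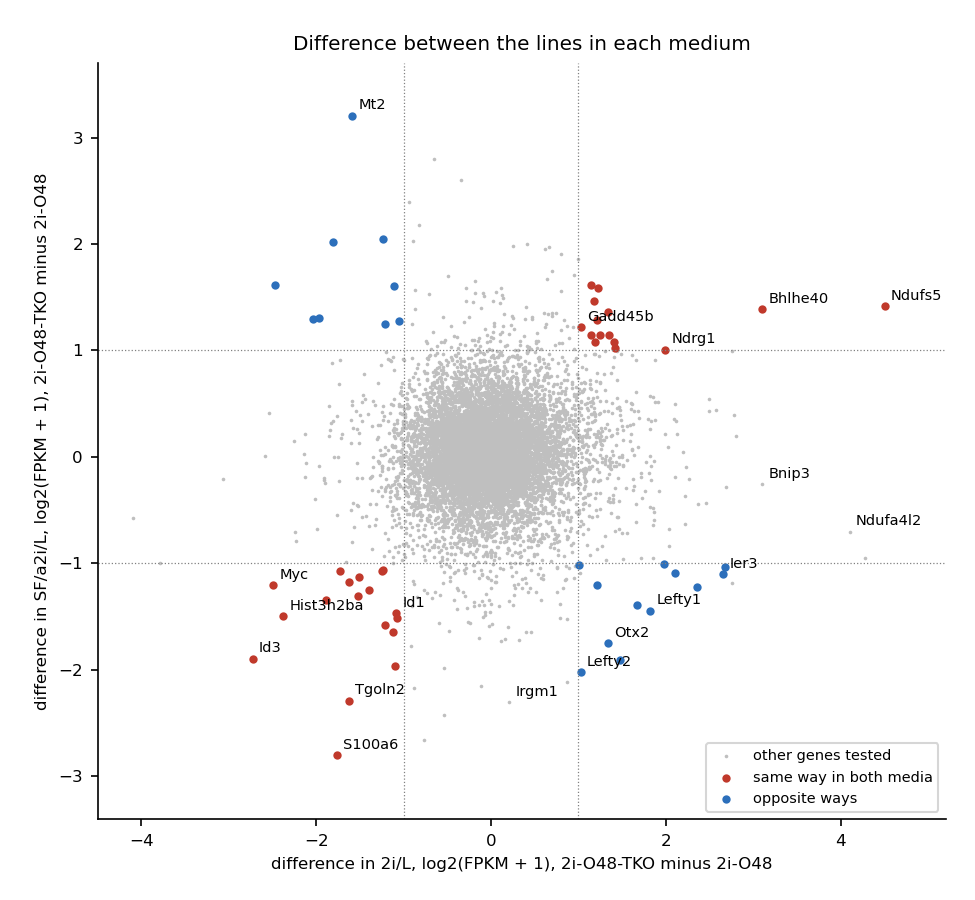
Difference in log2(FPKM + 1), 2i-O48-TKO minus 2i-O48, in 2i/L (x axis) and in SF/a2i/L (y axis) for each tested gene. The 33 genes that differed the same way are red and 21 of the 24 that differed in opposite ways are blue. Dotted lines mark a difference of 1, and the small RNA gene Snora78, at 2.62 and -10.1, lies outside the plotted range.

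Among the genes lower in 2i-O48-TKO, Id3 had the smallest adjusted p, and Id1 of the same family was also lower in both media. Id3 and Id1 encode proteins that bind and block basic helix-loop-helix factors, and both are classic targets of BMP signalling through SMAD proteins. Id3 (chromosome 4, 135699412 to 135701670, plus strand) stood at 221 FPKM in 2i-O48 against 32.5 FPKM in 2i-O48-TKO in 2i/L, and 143 and 37.9 FPKM after the switch. The 2 libraries of 2i-O48-TKO lay below both of 2i-O48, with differences of -2.73 and -1.89 and a mean of -2.31 ± 0.59 (SD over 2 media). The adjusted p in limma was 0.00387. Id1 was 43.8 and 20.1 FPKM in 2i/L and 35.7 and 12.3 FPKM after the switch, differences of -1.09 and -1.47 (limma adjusted p = 0.168). Id2 differed by -0.04 and -0.42 and Id4 by -0.53 and 0.14. The 3 passages of wild-type 2i-14 in 2i/L spread widely for the same genes, with Id3 at 53.4 to 133 FPKM and Id1 at 7.58 to 17.1 FPKM. For Id3, 2i-O48 in 2i/L lay above that range and 2i-O48-TKO in 2i/L below it. For Id1, 2i-O48 and 2i-O48-TKO in 2i/L both lay above it. Switched 2i-14, a single library, had 135 FPKM of Id3, near switched 2i-O48 and above switched 2i-O48-TKO. Its Id1 was 21.9 FPKM, between the 2 switched lines.

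The promoter of Id3 is shown as that of the gene with the smallest adjusted p, from 250 bases before to 50 after its start (RefSeq, GRCm38.p6, chr4:136143572-136143871, plus strand), with the SMAD core GTCT on either strand in capitals.
Id3: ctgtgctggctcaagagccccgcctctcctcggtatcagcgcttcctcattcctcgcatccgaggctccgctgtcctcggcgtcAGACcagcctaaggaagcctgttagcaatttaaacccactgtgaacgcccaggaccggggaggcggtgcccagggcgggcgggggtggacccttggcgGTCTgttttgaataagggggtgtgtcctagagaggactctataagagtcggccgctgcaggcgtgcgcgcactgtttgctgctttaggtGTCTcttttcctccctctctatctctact
It holds 3 matches. At least 1 match stood in 88.0% of the 32851 promoters of that length in the table, and at least 3 in 39.6%, so that the letters alone do not set Id3 apart.

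Myc, a transcription factor that drives growth, stood at 7.05 FPKM in 2i-O48 against 0.431 FPKM in 2i-O48-TKO in 2i/L. After the switch it was 2.63 and 0.580 FPKM. The differences were -2.49 and -1.20, just outside the threshold in limma (adjusted p = 0.0506). Mycn, its homologue, had differences of -0.85 and -0.83 (17.7 and 9.37 FPKM in 2i/L, 7.98 and 4.06 FPKM after the switch). Myc is a member of 3 lists and the 1 gene of each to differ the same way, against 0.331% of all genes. These are the 30 tested cell cycle genes, the 13 tested feedback and target genes of the Mek-Erk pathway and the 15 tested genes of IGF signalling and reported H19, miR-675 or let-7 targets. In the Mek-Erk list the median difference was -0.38 in 2i/L and -0.61 after the switch, with 10 and 11 of the 13 genes below 0. Over all genes the median was -0.057 and 0.033. Dusp6, an Erk phosphatase, had differences of -0.99 and -0.91, Spry4, an inhibitor of the pathway, -0.97 and -0.67, and Etv4, an Erk-induced factor, -1.57 and -0.66. Etv5 differed by -0.28 and 0.02 and Dusp9 by 0.20 and -0.31. The median of the same 13 genes moved by -0.61 to 0.085 between passages of 2i-14 in 2i/L and by -0.84 to 0.77 between passages of the TSa2i/L lines, so these medians lie within the range of passages.

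S100a6, a calcium-binding protein of the S100 family (chromosome 3, 90416816 to 90418336, plus strand), was 69.4 and 19.7 FPKM in 2i/L and 186 and 25.8 FPKM after the switch in 2i-O48 and 2i-O48-TKO (differences of -1.76 and -2.80, limma adjusted p = 0.00577). The values of the 2 lines did not overlap. In 2i-14, however, S100a6 was 17.2, 182 and 29.4 FPKM at p18, p39 and p50, a wider range than that between the lines in 2i/L. S100a4, a neighbour of S100a6 in the same family and a fibroblast gene, moved with it: 1.24 and 0.217 FPKM in 2i/L and 17.7 and 3.17 FPKM after the switch in 2i-O48 and 2i-O48-TKO, and 524 FPKM in 2i-14 p39. Of the 20 fibroblast genes 6 passed the filter, with a median difference of -0.26 in 2i/L, where 3 lay below 0, and of -0.44 after the switch, where 5 did. After the switch Tagln was 3.53 and 0.773 FPKM and Acta2 2.57 and 1.70 FPKM in 2i-O48 and 2i-O48-TKO. The collagens Col1a2 and Col3a1 were at most 0.0551 and 0.0609 FPKM in the 4 libraries and Col1a1 was 0.351 to 1.06 FPKM. The part of fibroblast RNA in the difference of S100a6 was not tested. In 2i-14 p39 these 3 collagens were 20.2, 5.86 and 16.9 FPKM. Ranges over the passages of 2i-14 thus include 1 library with fibroblast transcripts.

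Other genes lower in both media served adhesion, metabolism and signalling. Gja1, the gap junction protein connexin 43, was 38.3 and 11.7 FPKM in 2i/L and 23.2 and 9.73 FPKM after the switch in 2i-O48 and 2i-O48-TKO. Wdr45, an autophagy protein encoded on the X chromosome, was 103 and 38.6 FPKM and then 34.6 and 13.9 FPKM. Dusp14, a phosphatase of MAP kinases, was 100.3 and 42.1 FPKM and then 34.5 and 15.95 FPKM. In these 3 genes the difference was alike in the 2 media, -1.63 and -1.18 for Gja1, -1.40 and -1.25 for Wdr45 and -1.23 and -1.07 for Dusp14. Aspa, which breaks down N-acetylaspartate, differed by -1.88 and -1.35, the pro-apoptotic Moap1 by -1.52 and -1.30, the GTPase regulator Arhgdib by -1.21 and -1.58, the zinc finger gene Zfp936 by -1.72 and -1.07 and the secreted protein gene Reg2 by -1.51 and -1.13.

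Several of the lower genes rest on few fragments or on families that are hard to count. Tgoln2, a protein of the trans-Golgi network, was 7.14 and 1.64 FPKM in 2i/L and 3.89 and 0.000174 FPKM after the switch (limma adjusted p = 0.0208). The last value is far below what 1 fragment could give, so the size of the difference is not interpreted. Its near copy Tgoln1 differed by 0.13 and 0.02, and how fragments were split between the pair cannot be told from the FPKM. The histone gene Hist3h2ba was 6.88 and 0.516 FPKM in 2i/L and 1.82 FPKM and 0 after the switch (adjusted p = 0.0192 in limma), and histone genes share much of their sequence. Spata45, Spink3 and Gm8817 were each at most 3.84 FPKM and listed at 0 in at least 1 library of 2i-O48-TKO. The long noncoding RNA 1110020A21Rik was 3.35 and 0.839 FPKM in 2i/L and 2.62 and 0.729 FPKM after the switch. Of the 33 genes, 3 are not in the GENCODE vM1 annotation, and 5 share exon bases with another gene, from which unstranded libraries cannot separate them. They are Bhlhe40, Masp2, Ndrg1, Moap1 and Wdr45.

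Among the genes higher in 2i-O48-TKO, Bhlhe40 had the largest difference after Ndufs5. Bhlhe40 encodes a transcriptional repressor of the clock and of the response to low oxygen. It was 0.961 and 15.9 FPKM in 2i/L and 0.822 and 3.78 FPKM after the switch in 2i-O48 and 2i-O48-TKO, differences of 3.10 and 1.39 (limma adjusted p = 0.0409). In 2i-14 it was 2.05 to 4.32 FPKM over 3 passages in 2i/L, above 2i-O48 and below 2i-O48-TKO in that medium. Switched 2i-14 was at 1.51 FPKM, between the 2 switched lines. Ndrg1 and P4ha2 are further genes that low oxygen induces, the latter as a subunit of the enzyme that hydroxylates collagen. Ndrg1 was 3.83 and 18.2 FPKM in 2i/L and 1.31 and 3.65 FPKM after the switch, differences of 1.99 and 1.01. P4ha2 was 1.48 and 4.59 FPKM and then 0.146 and 2.16 FPKM, differences of 1.18 and 1.46. On this log2(FPKM + 1) scale the difference of P4ha2 was of like size in both media, while those of Bhlhe40 and Ndrg1 were larger in 2i/L. As a ratio of FPKM, P4ha2 was 3.11 in 2i/L and 14.8 after the switch. Its 0.146 FPKM in switched 2i-O48 is near the 0.144 FPKM that 3 fragments give a transcript of 1 kb in that library.

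The promoter of P4ha2 is shown because it was the only one of these 3 in the promoter table. The capitals mark ACGTG and GCGTG on either strand, the core letters bound by the hypoxia-inducible factors (RefSeq, GRCm38.p6, chr11:54100674-54100973, plus strand).
P4ha2: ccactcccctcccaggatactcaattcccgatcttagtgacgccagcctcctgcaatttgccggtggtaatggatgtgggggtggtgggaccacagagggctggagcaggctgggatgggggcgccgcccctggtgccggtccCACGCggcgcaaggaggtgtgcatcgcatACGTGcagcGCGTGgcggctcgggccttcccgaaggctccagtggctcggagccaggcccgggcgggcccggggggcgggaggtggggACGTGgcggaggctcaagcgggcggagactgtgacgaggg
It holds 4 matches, and 3.86% of the 32851 promoters hold at least 4, while 43.8% hold at least 1. Of 14 promoters of the genes higher in both media 9 held at least 1 match, as did 9 of 17 promoters of the genes lower in both. A match is a description of the letters and not of binding.

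Ndufs5, a subunit of respiratory complex I, had the largest difference, 4.4996 in 2i/L and 1.41 after the switch (limma adjusted p = 0.0445). It was 21.6 and 17.1 FPKM in 2i-O48-TKO and 5.78 FPKM in switched 2i-O48, but 0.000145 FPKM in 2i-O48 in 2i/L. That value is less than 1 fragment could give, and in 2i-14 the gene was 5.61 to 19.2 FPKM over 4 libraries, so the size of the 2i/L difference is not interpreted. Tfdp2, a partner of the E2F cell cycle factors, was the steadiest of the 33 genes. It was 4.56 and 11.3 FPKM in 2i/L and 5.34 and 13.05 FPKM after the switch, a difference of 1.15 in both, and 4.63 to 4.99 FPKM in the 4 libraries of 2i-14. Its limma adjusted p was 0.289. Tsc22d3, a glucocorticoid-induced leucine zipper protein, was 3.66 and 9.80 FPKM and then 8.09 and 21.2 FPKM. Tram2, which acts in collagen synthesis at the endoplasmic reticulum, was 2.01 and 6.57 FPKM and then 4.09 and 12.1 FPKM.

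Gadd45b, a stress-induced gene linked to active DNA demethylation, was 31.1 and 64.2 FPKM in 2i/L and 26.1 and 62.0 FPKM after the switch, differences of 1.02 and 1.22. It was the only one of 13 tested genes of the DNA methylation machinery to differ the same way, against 0.331% of all genes. Dnmt1, the maintenance methyltransferase, differed by 0.51 and 0.46, and its partner Uhrf1 by 0.19 and -0.11. The de novo enzymes Dnmt3a and Dnmt3b differed by -0.02 and -0.03 and by -0.92 and 0.16, and their cofactor Dnmt3l by 0.29 and -1.08. Zfp57, which protects imprints from demethylation, was 58.6 and 32.9 FPKM in 2i/L and 69.8 and 46.0 FPKM after the switch, differences of -0.82 and -0.59. The remaining genes higher in both media were Cd200, an immune checkpoint ligand (1.14 and 1.62), the cytokine subunit Il23a (1.25 and 1.15), the peroxidase Gpx6 (1.35 and 1.15), the histone gene Hist1h4n (1.41 and 1.03), the complement protease Masp2 (1.19 and 1.08), Dnajc5g (1.22 and 1.59) and Lrcol1 (1.40 and 1.08).

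**Figure D3:**
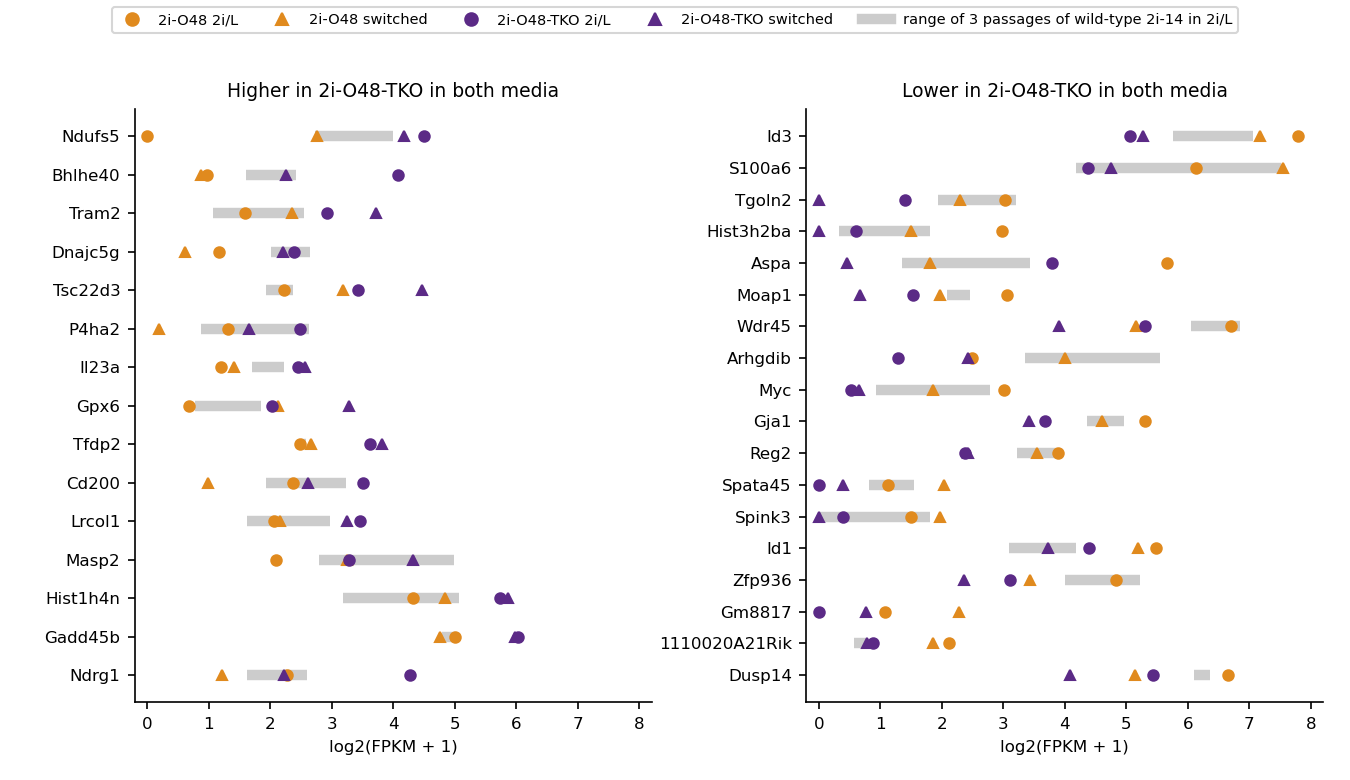
Level, log2(FPKM + 1), of the 33 genes that differed the same way in both media, with 2i-O48 in orange and 2i-O48-TKO in purple, circles for 2i/L and triangles for SF/a2i/L after the switch. Grey bars span 3 passages of wild-type 2i-14 in 2i/L, and for 18 of the genes that span is at least 1.

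Set beside wild-type 2i-14, the 33 genes did not divide simply. In 2i/L, 2i-O48-TKO lay outside the range of the 3 passages of 2i-14 for 26 of them and 2i-O48 for 19, with both lines outside for 15 and neither for 3. The range of the 3 passages was at least 1 for 18 of the 33 genes, against 10.7% of all genes tested, and reached the smaller of the 2 line differences for 12. 2i-O48 was nearer than 2i-O48-TKO to 2i-14 of the same medium in both media for 13 genes, and 2i-O48-TKO was nearer in both for 5. Genes that differed between the 2 lines were thus often genes that varied between passages of a line that carries none of the deletions.

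In 2i/L alone, 2i-O48-TKO had more transcripts of sugar breakdown. Of 19 tested glycolysis genes, 11 were higher by at least 1 and 0 lower, against 3.67% and 2.68% of all genes, and 18 lay above 0. Their median difference was 1.08, while after the switch it was 0.090 and 0 of them differed by at least 1. Pgk1, which makes ATP in glycolysis, was 158 and 507 FPKM in 2i/L and 200 and 213 FPKM after the switch in 2i-O48 and 2i-O48-TKO. Ldha, which turns pyruvate into lactate, was 931 and 1975 FPKM and then 400.96 and 436 FPKM. Pdk1, which holds pyruvate back from the mitochondria, differed by 1.92 and -0.32. Between passages of 2i-14 in 2i/L the median of the same genes moved by -0.27 to 0.11. Adjusted p-values of the 19 genes in limma were at least 0.0838, the value of Ldhb, which was nearest to differing in both media, at 1.48 and 0.96.

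Genes outside glycolysis that low oxygen induces were also mostly higher in 2i/L, in a list drawn up after their values were seen. Of 17 tested, 12 were higher by at least 1 in 2i/L and 0 lower, against 3.67% and 2.68% of all genes, with a median of 1.43. After the switch 3 were higher and 1 lower, against 1.44% and 1.55% of all genes, with a median of -0.03. The median moved by -0.35 to 0.43 between passages of 2i-14. Bnip3, a mitophagy receptor, was 24.0 and 213 FPKM in 2i/L and 27.04 and 22.5 FPKM after the switch. Ndufa4l2, which dampens complex I, was 0.333 and 21.9 FPKM and then 3.13 and 1.54 FPKM. 2i-O48-TKO in 2i/L was in both genes the highest of the 4 libraries, and 2i-14 in 2i/L was 39.7 to 71.4 FPKM for Bnip3 and 1.91 to 7.35 FPKM for Ndufa4l2. Bhlhe40, Ndrg1 and P4ha2 were the 3 genes of the list that were higher in both media, against 0.151% of all genes. Oxygen, cell density and time since feeding are not given for the cultures, and their part was not tested.

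Most tested trophoblast genes were lower in 2i-O48-TKO in 2i/L. Of 8 tested, 5 were lower by at least 1 and 0 higher, against 2.68% and 3.67% of all genes. Their median was -1.45, against -0.31 to 0.015 between passages of 2i-14. After the switch 2 of the 8 were higher and 0 lower, against 1.44% and 1.55% of all genes. The median was then 0.38, with 7 of the 8 above 0, against 0.024 to 0.74 between passages of the TSa2i/L lines. The keratin Krt8 was 20.01 and 1.51 FPKM in 2i/L and 1.59 and 1.24 FPKM after the switch, and its partner Krt18 was 68.7 and 10.97 FPKM and then 3.75 and 5.32 FPKM. The placental gene Plac1 was 7.83 and 0.851 FPKM and then 1.10 and 1.33 FPKM, and the X-linked homeobox gene Rhox6 200.1 and 55.5 FPKM and then 41.5 and 51.8 FPKM. For these 4 genes 2i-O48 in 2i/L was the high library, and the other 3 lay well below it. Krt7, at 0.99 and 1.86, and Ascl2, at 0.81 and 1.07, went the other way. Among regulators of the lineage, Cdx2 was at most 0.122 FPKM and Elf5 at most 0.0289 FPKM in the 4 libraries, while Tfap2c was 3.50 to 7.88 FPKM. Gata2, at 2.93 and 0.810 FPKM in 2i/L and 0.458 and 0.794 FPKM after the switch, and Gata3, at 1.16 and 0.245 FPKM and then 0 and 0.0182 FPKM, did not pass the filter and were highest in 2i-O48 in 2i/L. The placental gene Tpbpa was listed at 0. Of 24 tested germline genes that DNA methylation silences, 6 were lower and 1 higher in 2i/L, against 2.68% and 3.67% of all genes. Among the lower were Syce1 at -1.86 and Tex19.1 at -1.36. After the switch 0 of the 24 were lower and 2 higher, against 1.55% and 1.44% of all genes. Their median was -0.16 in 2i/L and 0.28 after the switch, against -0.11 to 0.16 between passages of 2i-14 and -0.12 to 0.18 between those of the TSa2i/L lines.

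After the switch alone, most interferon-inducible genes were lower in 2i-O48-TKO. Of 16 tested, 5 were lower by at least 1 and 0 higher, against 1.55% and 1.44% of all genes, with a median of -0.58. There 11 of the 16 lay below 0 and 5 above it, among the latter Psmb9 at 0.68 and H2-K1 at 0.50. In 2i/L 2 of the 16 were higher by at least 1, H2-K1 and H2-D1, and 0 lower, against 3.67% and 2.68% of all genes. The antiviral membrane protein Bst2 was 447 and 136 FPKM after the switch in 2i-O48 and 2i-O48-TKO, the GTPase Irgm1 41.0 and 7.51 FPKM and the ISG15 protease Usp18 41.2 and 8.49 FPKM. In 2i/L the same genes were 53.4 and 59.9, 0.396 and 0.616, and 0.122 and 0.0322 FPKM. Both lines were thus higher in SF/a2i/L than in 2i/L, 2i-O48-TKO by less. Switched 2i-14 was at 429, 131 and 75.4 FPKM. Between passages of the wild-type TSa2i/L lines the median of these genes moved by -1.35 to 1.72, a range that holds the difference of the lines.

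Some targets of Nodal differed in opposite directions in the 2 media. Nodal is a ligand of the TGF-β family, and Lefty1 and Lefty2 are its secreted inhibitors and targets. Lefty1 was 5.45 and 21.8 FPKM in 2i/L and 17.5 and 5.82 FPKM after the switch in 2i-O48 and 2i-O48-TKO. Lefty2 was 44.0 and 90.4 FPKM and then 46.5 and 10.7 FPKM. The homeobox gene Otx2 was 2.17 and 7.04 FPKM and then 4.07 and 0.513 FPKM. Nodal itself was 26.3 and 26.4 FPKM and then 15.3 and 7.49 FPKM. In Lefty1, Lefty2 and Otx2, 2i-O48-TKO was the higher line in 2i/L and the lower one after the switch. Over 7 genes, a list drawn up after their values were seen, the median difference was 1.02 in 2i/L and -1.18 after the switch. The broader list of 12 tested Nodal and BMP targets showed no such turn. It had 3 genes higher and 3 lower in 2i/L, against 3.67% and 2.68% of all genes, with a median of -0.09. After the switch it had 0 higher and 5 lower, against 1.44% and 1.55% of all genes, with a median of -0.96. Between passages its median moved by -0.64 to -0.38 in 2i-14 and by -0.63 to 0.69 in the TSa2i/L lines. The median of the 7 genes moved by -0.61 to -0.34 and by -0.62 to 1.38 between the same passages. Lefty1 in 2i-14 was 91.2, 14.04 and 10.9 FPKM at p18, p39 and p50, and the difference between the media was not tested, since each is 1 pair of libraries.

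Metallothioneins bind zinc and other metals. Of 7 tested metallothionein and zinc transport genes, 3 were lower by at least 1 and 0 higher in 2i-O48-TKO in 2i/L. Over all genes, 2.68% were lower and 3.67% higher. After the switch 4 were higher and 1 lower, against 1.44% and 1.55% of all genes. The median of the 7 was -0.65 in 2i/L, inside the range of -1.13 to 0.46 between passages of 2i-14. After the switch it was 1.25, against 0.049 to 0.51 between passages of the TSa2i/L lines. Mt1 was 2798 and 1777 FPKM in 2i/L and 1558 and 10868 FPKM after the switch, and Mt2 2402 and 798 FPKM and then 812 and 7509 FPKM. Mt3 differed by 0.46 and 0.03. The zinc exporter Slc30a1, which zinc induces through the same factor, was 2.38 and 0.456 FPKM and then 0.529 and 2.64 FPKM. In 2i-14 Mt2 was 341 to 2577 FPKM over 3 passages in 2i/L and 5575 FPKM after the switch, so that switched 2i-O48 was the low library among the 3 switched ones. This list, too, was drawn up after its values were seen.

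**Figure D4:**
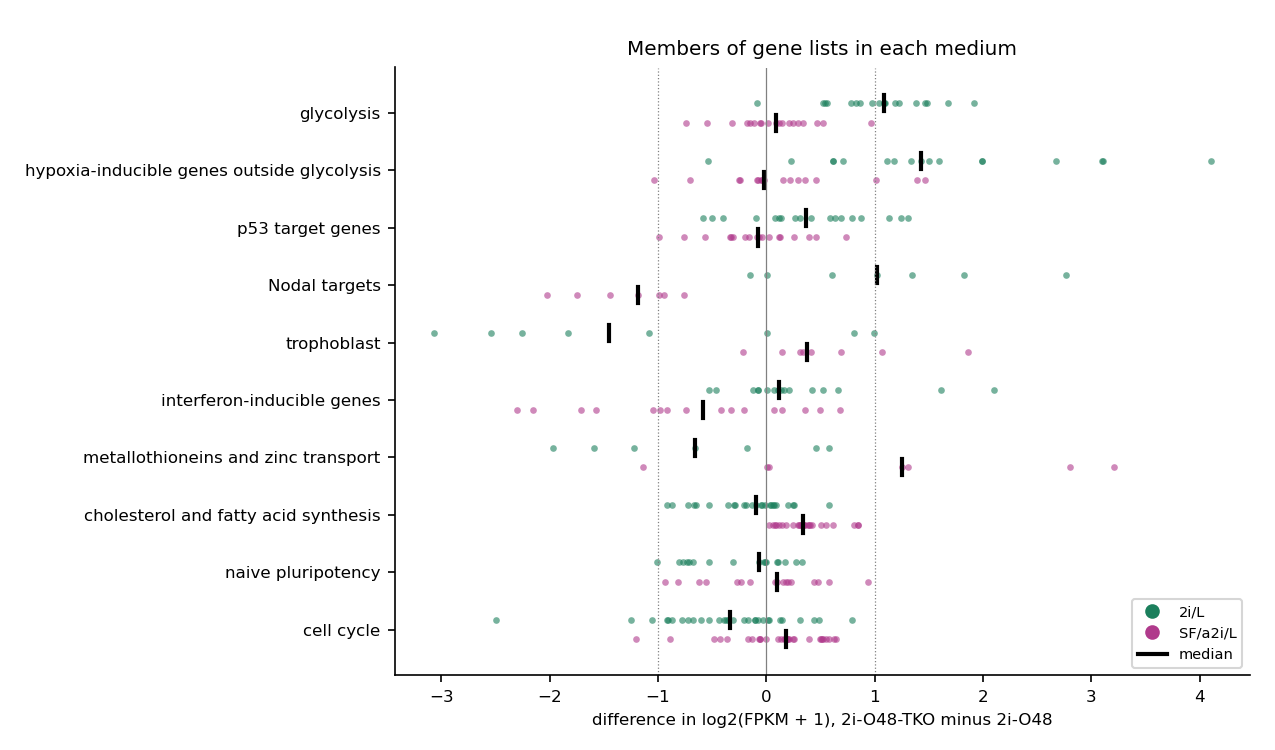
Difference in log2(FPKM + 1), 2i-O48-TKO minus 2i-O48, of each tested member of 10 gene lists in 2i/L (green) and in SF/a2i/L after the switch (pink), with the median as a black bar. Glycolysis genes have a median of 1.08 in 2i/L and 0.090 after the switch, and Nodal targets of 1.02 and -1.18.

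Of 17 naive pluripotency genes 0 differed by at least 1 the same way in both media, against 0.331% of all genes. Their medians were -0.07 and 0.10. Nanog was 467 and 232 FPKM in 2i/L and 195 and 110 FPKM after the switch in 2i-O48 and 2i-O48-TKO, differences of -1.01 and -0.82. Dppa2, a chromatin factor of pluripotent cells, differed by -1.66 and -0.98, just under the threshold, and Pou5f1 by -0.48 and -0.50. Of 12 tested general pluripotency genes, 2 were lower by at least 1 in each medium and 0 higher. Their median was -0.16 in 2i/L and -0.53 after the switch, where 11 of the 12 lay below 0, against -0.52 to -0.046 between passages of 2i-14 and -0.16 to 0.35 between those of the TSa2i/L lines. Of 9 tested genes of the formative and primed state, 3 were higher and 1 lower in 2i/L, and 0 higher and 3 lower after the switch. Their median was -0.02 and -0.73, against -0.64 to -0.15 and -0.23 to 0.43 between the same passages. Beside the counts of these 2 lists, 3.67% of all genes were higher and 2.68% lower by at least 1 in 2i/L. After the switch the shares of all genes were 1.44% and 1.55%. All 25 tested genes of cholesterol and fatty acid synthesis were above 0 after the switch. Their median was then 0.34, against 0.033 over all genes, and 0 of them differed by 1 or more. In 2i/L 16 of the 25 were below 0, with a median of -0.097. Between passages the median of the 25 moved by -0.28 to 0.14 in 2i-14 and by -0.28 to 0.27 in the TSa2i/L lines. The median of 18 p53 targets was 0.37 and -0.08, against -0.63 to -0.11 between passages of 2i-14 and -0.043 to 0.050 between those of the TSa2i/L lines. That of 30 cell cycle genes was -0.33 and 0.18, against -0.51 to -0.16 and -0.35 to 0.48 between the same passages. Of 19 listed genes of the 2-cell-like state, which a small share of stem cells enters at a time, 1 passed the filter, but several were present in a single library. Zscan4f was 0.147 and 17.3 FPKM in 2i/L and 0.0391 FPKM and 0 after the switch in 2i-O48 and 2i-O48-TKO. Zscan4c was 0.0227 and 13.2 FPKM and then 0.0972 FPKM and 0, and BC080695 was 0 and 5.63 FPKM and then 0.0133 FPKM and 0. In 2i-14 in 2i/L Zscan4f was 61.3, 0.679 and 44.5 FPKM at p18, p39 and p50, so that 2i-O48-TKO in 2i/L lay inside and 2i-O48 below that range. The Zscan4 copies are near-identical, and how fragments were split among them is uncertain. Lists of mesoderm and endoderm, neural ectoderm, primitive endoderm and Hox genes had 1 or 2 genes past the filter each.

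No whole chromosome stood apart in level between the lines. The median difference of the genes of a chromosome was -0.13 to 0.0047 in 2i/L and -0.027 to 0.071 after the switch, over 19 autosomes and the X chromosome. On chromosome 7, which carries H19, it was -0.027 and 0.053 over 714 genes, and 1 of the 33 genes, Zfp936, lay there. On chromosome 12, which carries the Dlk1-Dio3 domain, it was -0.079 and -0.0053 over 306 genes. With 1 exception, these medians lay within the range of the same chromosome between wild-type passages. The exception was chromosome 13 in 2i/L, at -0.042 against a lowest passage pair of -0.036.

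**Figure D5:**
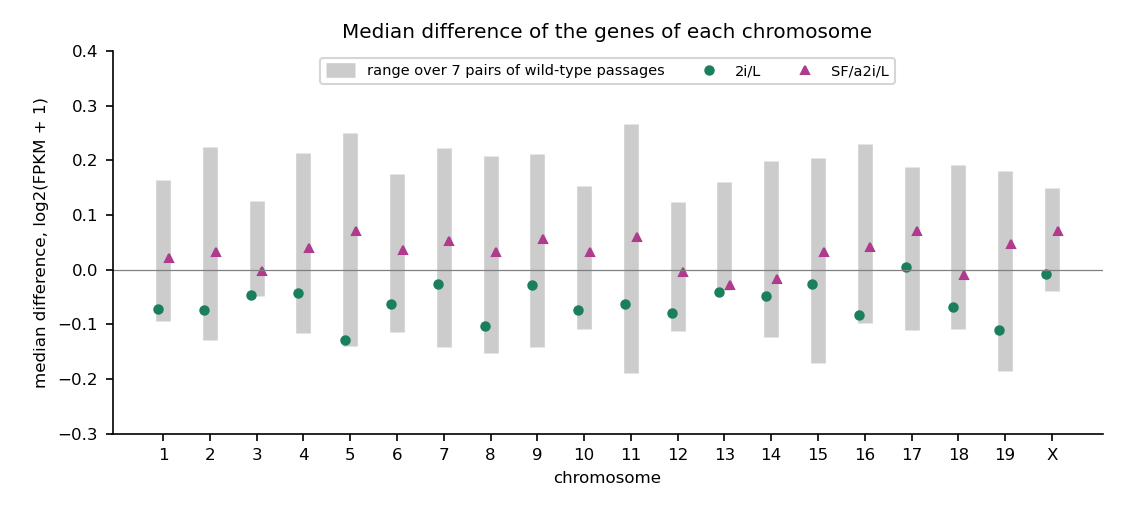
Median difference in log2(FPKM + 1), 2i-O48-TKO minus 2i-O48, of the tested genes of each chromosome in 2i/L (circles) and in SF/a2i/L (triangles). Grey bars span the medians of 7 pairs of wild-type passages, and the points lie between -0.13 and 0.071.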

How the data were processed

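Full-length cDNA was amplified from small numbers of haploid cells and sequenced. The authors mapped reads to mm9 with TopHat and made one FPKM per gene and library with Cufflinks. Per the labels, their processing notes name TopHat2 2.0.11, Bowtie2 2.2.2 and Cufflinks 2.2.1. The annotation and any scaling between libraries are not given in the sources used here. Each deposited FPKM table held 24525 rows for 24028 symbols, and rows of a symbol were summed here.

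Members and lists were chosen with earlier results of these data known. Genes that reached 1 FPKM in 2 or more of the 4 libraries were compared on log2(FPKM + 1), within each medium. The fit used limma 3.58.1 (R 4.3.3) with an intensity trend and the medium as a block, two-sided, with Benjamini-Hochberg adjustment at 0.05, checked on simulated data. Genes named are H19, the 2 imprinted domains, up to 15 higher and 15 lower genes without small RNAs, up to 5 list members that differed the same way, and genes the paper treats. Other genes named, and 3 added lists (hypoxia-inducible, metallothionein and Nodal target genes), were chosen after their values were seen. Depth is not given with FPKM. It was estimated from the steps of low values on 3737 genes longer than 1500 bp with 1 annotated transcript, so it is approximate. Alternatives changed the pseudocount, filter, scaling, repeated symbols, threshold, block, trend, added libraries and overlapping genes. Python 3.11.15, numpy 2.4.6, pandas 2.3.3 and matplotlib 3.10.9 were used. A few genes are not reported here.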

Additional observations from a re-analysis of the deposited data

Results flagged for a closer look

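Leaving out small RNA genes, 23 genes differed between 2i-O48-TKO and 2i-O48 by at least 1 in log2(FPKM + 1) in both media but in opposite directions. Values are given for 21 of them, as the difference in SF/a2i/L minus the difference in 2i/L. They rest on 1 library per line and medium, and the difference between the media was not tested.

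The genes higher in 2i-O48-TKO in 2i/L and lower after the switch were Ier3 (-3.76), Cox4i2 (-3.70), Cmtm8 (-3.58), Cd74 (-3.39), Lefty1 (-3.26), Gng13 (-3.19), Otx2 (-3.09), 1700102H20Rik (-3.05), Lefty2 (-3.05), Ang (-2.98), Cysrt1 (-2.41) and Hsbp1l1 (-2.03). Besides Nodal targets they include Cox4i2, a subunit of cytochrome oxidase that low oxygen induces, Ier3, an immediate early gene, and Cd74, the invariant chain of antigen presentation.

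The genes lower in 2i-O48-TKO in 2i/L and higher after the switch were Apom (2.33), Slc30a1 (2.47), 4930591A17Rik (2.71), Mt4 (3.27), Gm9 (3.28), Gm3143 (3.33), 1700019B21Rik (3.83), Spint5 (4.09) and Mt2 (4.80). Mt2 and Mt4 are metallothioneins and Slc30a1 exports zinc.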

How the results depend on the processing

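The number of genes differing the same way in both media depended on the threshold, the pseudocount and the filter. It was 33 at a difference of 1, 243 at 0.58 and 0 at 2. It was 110 with a pseudocount of 0.1 and 21 with a mean FPKM of at least 5. With 1 library left out only 1 medium remains, and the count ranged from 297 to 632. With no filter, median centring, quantile scaling or the highest row per symbol it was 32 to 36.

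The 6 calls of limma were fragile. Limma called 0 genes without the medium as a block (112 with an unadjusted p under 0.05), with 2 libraries of 2i-14 added (468) and without a filter (732). It called 0 to 0 genes with 1 library left out, where 78 to 543 had an unadjusted p under 0.05 and the lone sample is assumed to vary like the others. It called 1 gene with median centring (Id3), 2 without the intensity trend, 3 with a pseudocount of 0.1 and 11, 4 of them shared with the 6, with a mean FPKM of at least 5. With genes that overlap another gene left out, an alternative chosen after seeing the data, it called 2. The cause was not tested. The chromosome 3 median in 2i/L went from -0.046 to 0.018 with median centring, which shifts every gene of a library alike. The lines were paired by medium. With 1 library left out the difference in the other medium remains, and its sign differed between the media for 24 of 75 named genes, 0 of them among the 33.

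At 3 fragments, depth limits a transcript of 1 kb to 0.138 to 0.163 FPKM and H19, at its own length, to 0.0676 to 0.0801 FPKM. H19 was at or under this in 3 of the 4 libraries.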
